A study of Mus musculus with 12 samples.

Results

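The 10 genes described here encode CC chemokines: Ccl2, Ccl7, Ccl12, Ccl8, Ccl3, Ccl4, Ccl5, Ccl6, Ccl9 and Ccl24. They were taken by gene symbol from single-cell count tables of mouse meninges, and all 10 symbols were found among 28694 gene rows, of which 30 carry a Ccl name. The rule uses no measured value. Each gene was followed across the cell types of the tissue, in the share of cells that held its RNA and in its level after hypoxia-ischemia (HI) against naive animals.

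CC chemokines are small secreted proteins that bind G protein-coupled receptors on leukocytes and steer the cells towards the source. Ccl2, Ccl7 and Ccl12 act on Ccr2 and draw classical monocytes out of the blood, while Ccl3 and Ccl5 act on Ccr1, among other receptors. Resident macrophages of the meninges, the membranes that wrap the brain, are a known source of several of them, and the genes lie in clusters that arose by duplication.

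The libraries came from C57Bl/6j mice at postnatal day 4, either 6 h after HI, an injury in which blood flow and oxygen to the brain are both cut, or naive. There were 2 HI and 2 naive gene expression libraries, each a pool of 12 pups (6 male, 6 female), made with the 5' chemistry of 10x Genomics. The set holds no sham group, so HI cannot be told apart from any handling that came with it. All animals were otherwise unmanipulated as far as the labels say, and no allele or transgene is named. Receptor libraries of T and B cells from the same 4 pools were used to check lymphocytes.

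HI 1, HI 2, naive 1 and naive 2 held 51986763, 68543046, 62062630 and 65759672 unique molecular identifiers (UMIs, each standing for 1 captured RNA molecule). After filtering they kept 4070, 6081, 4912 and 5662 cells, with a median of 11091, 9574, 10802 and 9940 UMIs. Pairs of libraries shared 29 to 54 cell barcodes. Cells were clustered without the genes whose symbols begin with Ccl, Cxcl, Ccr or Cxcr, while chemokine and receptor genes with other names were not left out. Clusters were named by marker lists that hold none of the genes described here. The BAM list does hold the CXC chemokine Pf4, the platelet list holds the CXC chemokine Ppbp, and a few lists hold a chemokine receptor. Nothing says how the pools relate to the runs, and the p-values reflect only how far these libraries, 2 against 2, spread, which may be technical. An exact permutation test of that size cannot give a 2-sided p below 0.33, so single values carry no such test.

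Border-associated macrophages (abbreviated BAM), which live in the meninges themselves, made up 2819 and 4257 cells of HI 1 and HI 2 and 2714 and 3497 cells of naive 1 and naive 2. Microglia, which live inside brain tissue, numbered 525 and 652 cells in HI and 691 and 532 in naive libraries. Classical monocytes were few, 61 and 102 cells in HI and 88 and 86 in naive libraries, as were mature neutrophils, 84 and 104 in HI and 25 and 44 in naive libraries. A gate on single-cell marker detection gave the same name to 98.8% of the 17164 cells that both methods named. It used the same marker lists, left 1792 cells without a name, and named fewer cells of some small classes. The gate named 175 classical monocytes and 26 conventional dendritic cells, where the clusters held 337 and 276. Each name means cells that resemble that type.

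In the genome (GRCm38.p6) Ccl24 lies on chromosome 5, from 135569935 to 135573123, and the other 9 lie on chromosome 11. Ccl2 (82035577 to 82037452), Ccl7, Ccl12 (82101845 to 82103399) and Ccl8 (82115185 to 82116799) follow each other, and Ccl12 and Ccl8 are 11785 bases apart. Ccl5, Ccl9, Ccl6, Ccl3 and Ccl4 form a second group that starts 1408978 bases beyond Ccl8, with 9249 bases between Ccl9 and Ccl6. The RefSeq models of Ccl3 and Ccl4 overlap by 755 bases, and their counts are uncertain to the extent that reads fall there. The upstream windows of 4 genes are shown, because Ccl12, Ccl8 and Ccl9 are among the members that were higher in HI macrophages and Ccl6 is the neighbour that resembles Ccl9 most. RefSeq windows run from 250 bases before the transcript start to 50 after it, read 5′ to 3′ on the gene's strand, with matches to the motifs named below in capitals.
Ccl12, chr11:82101595-82101894, plus strand: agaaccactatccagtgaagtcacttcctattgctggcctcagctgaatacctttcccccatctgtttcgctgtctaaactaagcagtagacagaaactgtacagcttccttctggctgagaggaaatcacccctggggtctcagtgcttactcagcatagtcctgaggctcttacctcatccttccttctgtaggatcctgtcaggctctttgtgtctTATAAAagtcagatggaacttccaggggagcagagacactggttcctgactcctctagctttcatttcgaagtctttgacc
Ccl8, chr11:82114935-82115234, plus strand: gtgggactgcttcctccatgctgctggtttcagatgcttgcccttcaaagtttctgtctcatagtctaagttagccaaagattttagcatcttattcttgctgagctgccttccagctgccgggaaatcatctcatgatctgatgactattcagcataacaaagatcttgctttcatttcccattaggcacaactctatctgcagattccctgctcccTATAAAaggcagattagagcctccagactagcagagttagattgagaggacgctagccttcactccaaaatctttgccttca
Ccl9, chr11:83578587-83578886, minus strand: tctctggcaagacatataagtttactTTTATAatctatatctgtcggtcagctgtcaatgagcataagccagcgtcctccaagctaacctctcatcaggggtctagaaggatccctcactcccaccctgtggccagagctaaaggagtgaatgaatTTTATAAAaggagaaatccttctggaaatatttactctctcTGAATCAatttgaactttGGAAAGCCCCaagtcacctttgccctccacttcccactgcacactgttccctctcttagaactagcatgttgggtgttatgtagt
Ccl6, chr11:83593038-83593337, minus strand: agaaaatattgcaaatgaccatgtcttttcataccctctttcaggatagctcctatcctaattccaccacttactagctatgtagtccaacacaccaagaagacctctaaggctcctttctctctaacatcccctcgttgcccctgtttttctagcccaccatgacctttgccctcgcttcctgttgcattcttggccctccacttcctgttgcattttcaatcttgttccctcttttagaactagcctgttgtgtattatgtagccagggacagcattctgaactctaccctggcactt

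The motifs searched on both strands were the TATA box TATAAA, the AP-1 motif TGANTCA, the STAT motif TTCNNNGAA, the hypoxia motif ACGTG and a loose NF-kB motif of 3 G, any 5 bases and 2 C. TATAAA began at −31 in Ccl12 and at −32 in Ccl8, counted from the transcript start, and it is held by 13.6% of the 32851 windows in the table. Ccl9 held TATAAA or its reverse complement 3 times, the nearest at −92, of which a pair overlaps. Ccl9 also held TGANTCA at −53 and the NF-kB motif, read on the other strand, at −35, motifs held by 7.81% and 50.8% of all windows. Ccl6 held none of the 5. Among the 5 member windows in the table the alignment identity ran between 57.0% and 71.1%, with Ccl6 and Ccl9 the closest pair at 71.1% and Ccl12 and Ccl8 at 65.0%. These matches describe letters only.

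The first question was which cells held each chemokine. Levels are given as CPM (counts per 10 to the power of 6 UMIs of a class, summed per library) and compare 1 gene between classes, not genes with each other. There were 5 patterns. Ccl2, Ccl7, Ccl12, Ccl8 and Ccl24 were held mainly by BAM, Ccl3 by microglia, Ccl5 by the T cell class, and Ccl6 and Ccl9 were found in most myeloid classes. For Ccl3 the lead was narrow in HI 2, where microglia held 1368 UMIs and BAM 1026. For Ccl5 it was narrow in HI 1, where the T cell class held 57 UMIs, 50 of them in 1 cell, and microglia 38. Microglia held most Ccl4 UMIs in 3 libraries, and several classes shared them in HI 2. B cells, which are not a source of macrophage chemokines, held at most 8.88 CPM of any of the 10 genes and serve as the level of background RNA. Their median depth was 7837 to 10049 UMIs a cell, against 9811 to 11214 in BAM.

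**Figure D1:**
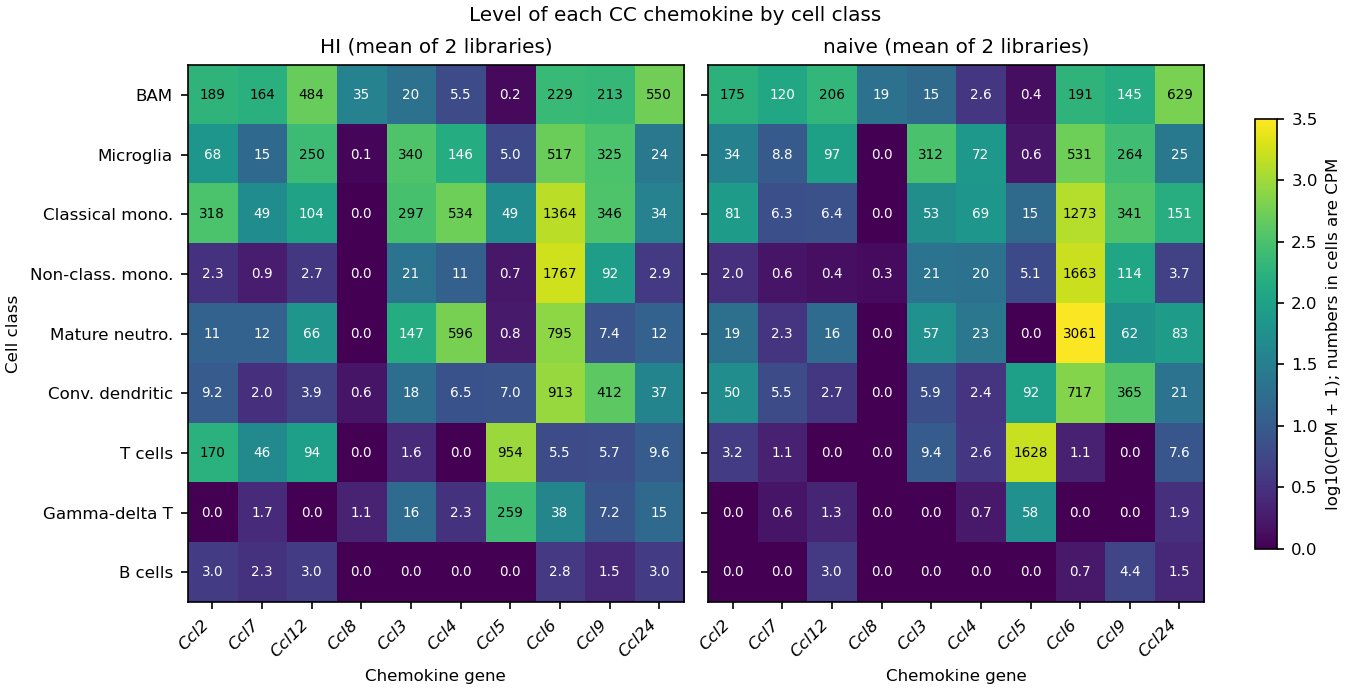
Mean level (CPM) of each chemokine gene in 9 cell classes, for HI (left) and naive (right) libraries, mean of 2 libraries each, colour on a log10(CPM + 1) scale. Ccl24 and Ccl8 stand out in BAM, Ccl3 in microglia, Ccl5 in the T cell class, which also carries NK genes, and Ccl6 reaches over 1000 CPM in monocytes.

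**Figure D2:**
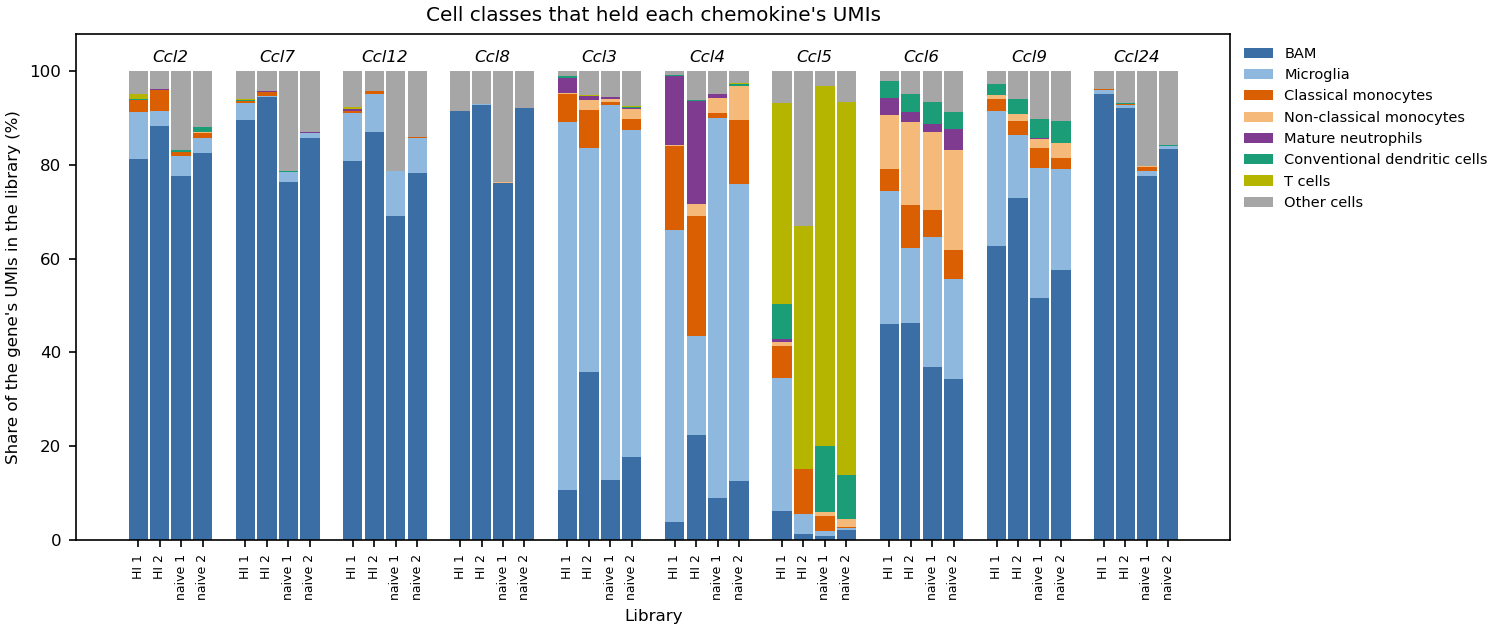
Share (%) of all UMIs of each gene that each cell class held, 1 bar per library, HI libraries left of naive ones. BAM held 80.8% and 87.1% of Ccl12 UMIs in HI and 69.0% and 78.4% in naive libraries, while neutrophils held 14.8% and 22.0% of Ccl4 UMIs in HI and under 1% in naive libraries.

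Ccl2, Ccl7 and Ccl12, the Ccr2 ligands, had most of their UMIs in macrophages. BAM held 81.2% and 88.4% of all Ccl2 UMIs of HI 1 and HI 2 and 77.5% and 82.5% in naive 1 and naive 2. They were themselves 69.3% and 70.0% of the cells in HI and 55.3% and 61.8% in naive libraries. For Ccl7 the BAM share was 89.6% and 94.4% in HI and 76.4% and 85.8% in naive libraries. Cluster 2, which has BAM markers but was left unnamed because it leads with neural genes, made up 1.25% and 2.57% of cells in HI and 12.2% and 10.5% in naive libraries, and its UMIs are not in these BAM shares. In the order of Ccl2 levels classical monocytes (mean 200 CPM, range 60.4 to 367) came before BAM (182 CPM, 149 to 201), and microglia stood at 51.0 CPM (30.0 to 102). Those ranges overlap between monocytes and BAM but not between BAM and microglia. In the T cell class of HI 1 a single cell held 86 of 87 Ccl2 UMIs, and 46 of 49 Ccl12 UMIs likewise lay in 1 cell. Ccl2 in non-classical monocytes (2.14 CPM) could not be set apart from B cells (1.51 CPM). For Ccl7, BAM led at 142 CPM (112 to 168), overlapped by the unnamed clusters 2, 19 and 20 (121, 120 and 116 CPM). Classical monocytes (27.8 CPM) and microglia (11.7 CPM) lay below the range of BAM, and their own ranges overlap. Cluster 20, cells between BAM and microglia in their markers that were left unnamed, was highest for Ccl12. It had 1255 and 901 CPM in HI 1 and HI 2 and 856 and 648 CPM in naive 1 and naive 2, above the range of BAM (196 to 551 CPM), which overlapped that of microglia (96.3 to 276 CPM).

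The share of cells with a UMI was counted after every cell was thinned to 3000 UMIs. Ccl12 was found in 32.0% of BAM of HI 1 (exact 95% Clopper-Pearson bounds, 30.2 to 33.7), in 38.3% of HI 2 (36.9 to 39.8), in 26.8% of BAM of naive 1 (25.2 to 28.5) and 25.5% of naive 2 (24.1 to 27.0). These intervals cover counting error only. Both HI libraries thus lay above both naive ones, and without thinning the shares were 54.1% and 57.6% in HI and 51.0% and 46.2% in naive libraries. No B cell of the 4 libraries had a Ccl12 UMI after thinning, which with 30 to 63 B cells a library allows shares of up to 10.0% to 4.76%. Ccl2 was found in 25.5% and 23.6% of HI BAM and 28.1% and 23.9% of naive BAM, and Ccl7 in 21.6% and 22.0% of HI BAM and 22.1% and 19.99% of naive BAM. For Ccl2 and Ccl7 the groups overlapped.

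HI was next compared with naive in BAM. Ccl12, Ccl8, Ccl9 and Ccl7 rose, and no member fell. Ccl12 had 418 and 551 CPM in HI 1 and HI 2, against 216 and 196 CPM in naive 1 and naive 2. Its mean was 484 ± 94.6 CPM in HI and 206 ± 13.6 CPM in naive BAM (SD, n = 2 each). The log2 change was 1.25 (SE 0.14, edgeR adjusted p = 0.00733). The groups did not overlap, and this was the widest change among the called members. Ccl7 had 160 and 168 CPM in HI BAM and 128 and 112 CPM in naive BAM, with a log2 change of 0.47 (SE 0.078, edgeR adjusted p = 0.0251). Ccl2, whose gene lies next to Ccl7, had 197 and 180 CPM in HI BAM and 201 and 149 CPM in naive BAM, and its log2 change of 0.12 did not pass (edgeR adjusted p = 0.653). Of the 9 members tested in BAM, 4 were called higher and 0 lower, beside 2.34% of all 12799 genes called higher and 1.45% called lower. Ccl5 did not pass the filter on low counts. The median log2 change of the 9 was 0.47, and that of all genes tested was 0.0035.

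Ccl12 passed in BAM without any single library, while Ccl7 did not pass without naive 2 (0.37, edgeR adjusted p = 0.140). RNA of neural genes moved in BAM beside these results. Of 7 markers 5 fell, and their summed level was 72.0 and 84.6 CPM in HI and 135 and 128 CPM in naive BAM, with none at 0. Of 6 markers of dividing cells 3 fell, with sums of 199 and 237 CPM in HI and 301 and 316 CPM in naive BAM. The part of either in the chemokine changes was not tested.

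**Figure D3:**
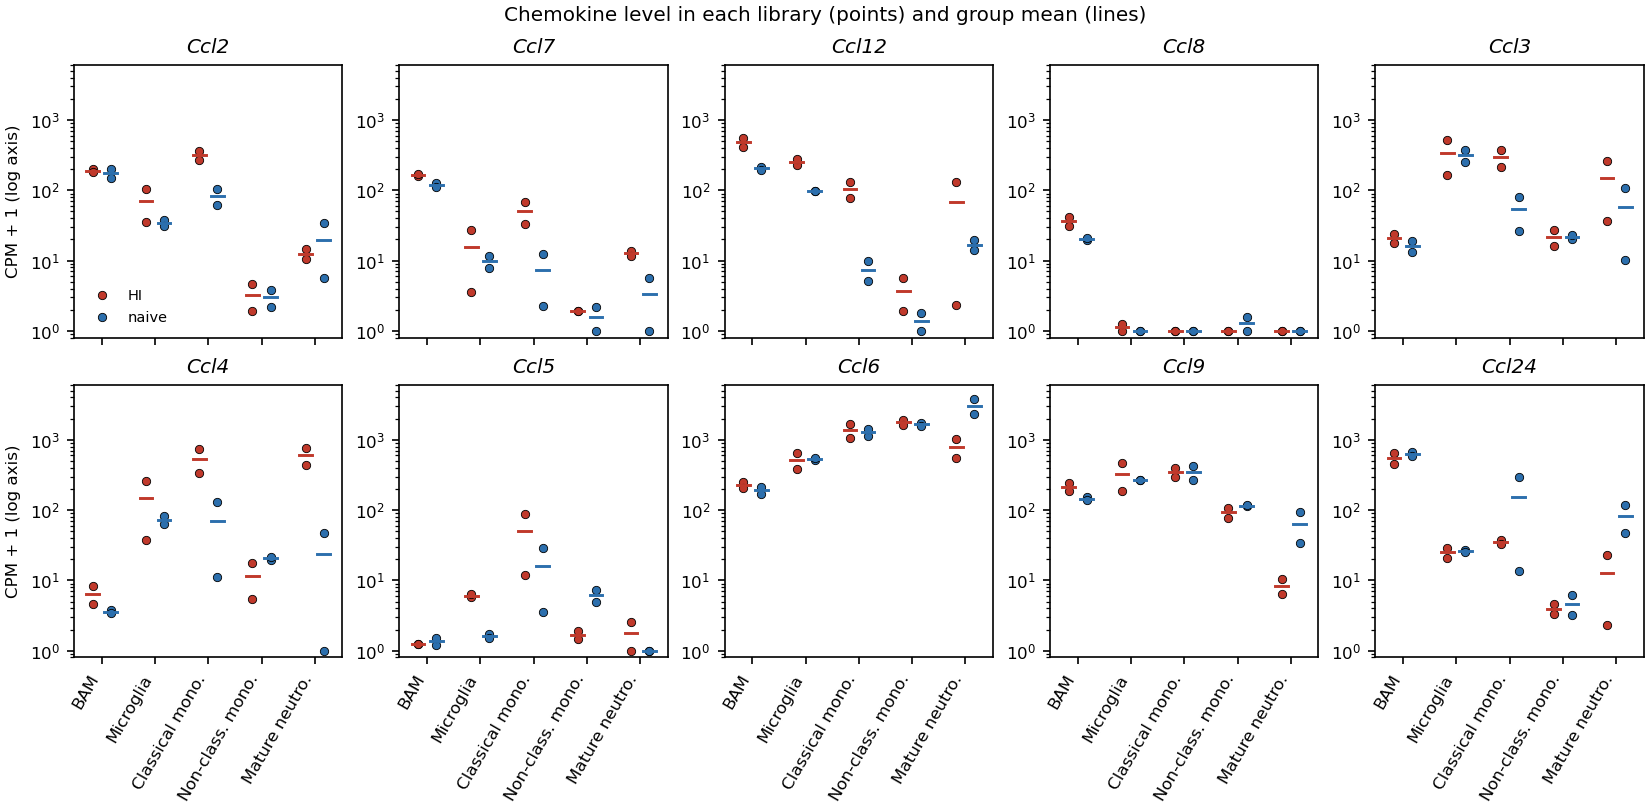
Level (CPM + 1, log axis) of each gene in 5 cell classes, 1 point per library and a line at the group mean, HI left of naive. In BAM both HI points lie above both naive points for Ccl12, Ccl7, Ccl8, Ccl9 and Ccl4, and in classical monocytes for Ccl2, Ccl3, Ccl4, Ccl7 and Ccl12.

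Microglia shared the change of Ccl12. They had 225 and 276 CPM in HI 1 and HI 2, against 97.7 and 96.3 CPM in naive 1 and naive 2, a log2 change of 1.36 (SE 0.11, edgeR adjusted p = 0.00521). In 3 of the 4 microglia clusters both HI libraries lay above both naive ones, and the median ratio over the 4 was 2.51. These clusters share their libraries, and the same count was not made over all genes. The difference between BAM and microglia in the HI effect on Ccl12 was −0.13 on the log2 scale (SE 0.087, edgeR adjusted p = 0.645), which did not pass. Of 9 members tested in microglia 2 were called higher and 0 lower, beside 0.0820% of 10971 genes higher. The second was Ccl5, with 38 and 44 UMIs in HI and 7 and 4 in naive microglia (log2 change 2.95, edgeR adjusted p = 0.0456). A single cell held 25 of the 38 UMIs in HI 1, and another held 43 of the 44 in HI 2. Without those cells Ccl5 did not pass the filter, and the call was also lost without naive 1 (edgeR adjusted p = 0.160), without naive 2 (0.311) or with the marker gate (0.130).

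In classical monocytes, the blood-derived cells that Ccr2 ligands attract, Ccl2 and Ccl12 rose. Ccl2 had 269 and 367 CPM in HI 1 and HI 2, against 60.4 and 103 CPM in naive 1 and naive 2, a log2 change of 1.98 (SE 0.27, edgeR adjusted p = 0.0295). Ccl12 had 77.5 and 131 CPM in HI and 4.09 and 8.76 CPM in naive libraries, a log2 change of 4.06 (SE 0.43, edgeR adjusted p = 0.0140). Few cells carried this RNA. Ccl12 was found in 8.20% and 2.94% of HI classical monocytes and 1.14% and 1.16% of naive ones, and in HI 2 a single cell held 96 of 144 UMIs. Ccl2 was found in 18.0% and 14.7% of HI cells and 9.09% and 8.14% of naive cells. With the highest cell of each library left out, an alternative chosen after seeing the data, the log2 changes were 3.47 for Ccl12 (edgeR adjusted p = 0.0120) and 2.26 for Ccl2 (0.00715).

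Of 9 members tested in classical monocytes 2 were called higher and 0 lower, beside 0.678% of 7231 genes called higher. The unadjusted edgeR p was under 0.05 for 5 of the 9, beside 832 of all 7231 genes. The median log2 change of the 9 members was 1.98, and that of all genes tested was −0.019. Ccl3 had 379 and 216 CPM in HI and 25.6 and 80.1 CPM in naive cells (log2 change 2.52, edgeR adjusted p = 0.0873), and passed without the highest cells (2.59, 0.0120). Ccl4 had 728 and 340 CPM in HI and 10.2 and 128 CPM in naive cells (log2 change 3.002, edgeR adjusted p = 0.224). Ccl7 had 32.0 and 66.6 CPM in HI and 11.3 and 1.25 CPM in naive cells (log2 change 2.89, edgeR adjusted p = 0.143). Among these clustered cells the HI and naive libraries did not overlap for any of the 3, although none of them passed.

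The calls in Classical monocytes depended on which cells and libraries were kept. Without removal of doublets the log2 change of Ccl12 was 1.97 (edgeR adjusted p = 0.326). Ccl2 did not pass without naive 1 (1.66, edgeR adjusted p = 0.0585). With the marker gate, which takes 31 and 62 cells in HI and 42 and 40 in naive libraries, neither gene was called. Ccl12 then had 13 and 1 UMIs in HI and 1 and 3 in naive libraries, or 30.4 and 1.47 CPM against 2.04 and 6.91 CPM, so that the groups overlapped and it did not pass the filter on low counts. Ccl2 had a log2 change of 1.42 (edgeR adjusted p = 0.267). In the gated cells the groups also overlapped for Ccl3, with 491 and 26.4 CPM in HI and 28.5 and 6.91 CPM in naive cells, and for Ccl7, with 0 and 2 UMIs in HI and 1 and 1 in naive cells. For Ccl4 they did not, at 563 and 23.5 CPM in HI and 4.07 and 0 CPM in naive cells. Markers of other cells moved beside them. Of the 6 mature neutrophil markers tested, from a list of 8, 3 rose, with summed levels of 10674 and 11452 CPM in HI and 2072 and 2901 CPM in naive cells, and Retnlg at 0 in 3 of 4 libraries. Of 6 markers of dividing cells 5 rose, with sums of 315 and 277 CPM in HI and 19.4 and 50.04 CPM in naive cells. The 11 BAM markers summed to 2045 and 1150 CPM in HI and 1574 and 813 CPM in naive cells, with Cd209f at 0 in every library. The part of these markers in the chemokine results was not tested.

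Ccl8, which in mice acts on Ccr8, was found mainly in BAM. BAM held 91.4% and 92.8% of its UMIs in HI and 76.2% and 92.1% in naive libraries, and the rest lay mainly in unnamed clusters with BAM markers. The highest level was in 1 of these, cluster 19, which was left unnamed because it leads with fibroblast genes (Vtn, Ptgds, Apod and Dcn among them). It had 103 and 71.9 CPM of Ccl8 in HI and 177 and 47.1 CPM in naive libraries, above the range of BAM, and the groups overlap. Classical monocytes, mature neutrophils, T cells and B cells had 0 UMIs of Ccl8 in all 4 libraries, which in classical monocytes allows up to 2.74 to 3.75 CPM (3 counts of a library's total). In BAM it had 30.1 and 40.2 CPM in HI 1 and HI 2, against 18.8 and 19.8 CPM in naive 1 and naive 2. That was a mean of 35.1 ± 7.13 CPM in HI and 19.3 ± 0.698 CPM in naive BAM (SD, n = 2 each), and the change was 0.88 on the log2 scale (SE 0.14, edgeR adjusted p = 0.0220). It did not pass without naive 1 (edgeR adjusted p = 0.0747) or without naive 2 (0.0911). Cells with Ccl8 were rare, 3.30% and 2.96% of BAM in HI and 1.69% and 1.86% in naive libraries after thinning, and both HI libraries again lay above both naive ones.

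Ccl3 and Ccl4, which activated myeloid cells release quickly, followed another pattern. Microglia had 516 and 165 CPM of Ccl3 in HI 1 and HI 2 and 375 and 249 CPM in naive 1 and naive 2, against 16.6 and 23.0 CPM in HI BAM and 18.3 and 12.2 CPM in naive BAM. The microglial values overlapped between groups (log2 change 0.11, edgeR adjusted p = 0.932). Microglia with a Ccl3 UMI made up 27.4% and 18.3% of HI and 27.4% and 25.8% of naive microglia. Cluster 14, microglia that lead with Gpnmb and Spp1, had the highest Ccl3 of the microglia clusters, 972 and 407 CPM in HI and 717 and 572 CPM in naive libraries. The same cluster had 507 and 70.2 CPM of Ccl4 in HI and 130 and 139 CPM in naive libraries, so that HI 1 and HI 2 lay on either side of the naive pair. In all microglia, Ccl4 had 256 and 36.7 CPM in HI and 81.0 and 62.7 CPM in naive libraries, and its log2 change of 1.01 (edgeR adjusted p = 0.516) was −0.99 without HI 1 and past the threshold there (0.00113), and 1.81 without HI 2 (3.15e-07). In both of these fits the lone HI library is assumed to vary like the naive ones. In BAM, Ccl4 was low, with 3.65 and 7.31 CPM in HI and 2.74 and 2.40 CPM in naive cells (log2 change 1.13, edgeR adjusted p = 0.101).

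Ccl4 in mature neutrophils, the first blood cells to enter injured tissue, had the widest difference of any member and class tested. It had 487 and 320 UMIs in HI 1 and HI 2, against 7 and 0 UMIs in naive 1 and naive 2, or 761 and 431 CPM against 46.1 and 0 CPM. The log2 change of 5.45 (SE 0.87) did not pass (edgeR adjusted p = 0.0613), and it did pass with RLE scaling in place of TMM (0.0412) and with the marker gate (0.00855). The RNA lay in few cells, 10.7% and 3.85% of HI neutrophils and 8% and 0% of naive ones. A single cell held 237 of the 487 UMIs in HI 1, and another held 266 of 320 in HI 2. With the marker gate neutrophils held 183 and 320 Ccl4 UMIs in HI and 2 and 0 in naive libraries. The HI 1 cell with 237 UMIs was thus not gated as a neutrophil. Ccl3 had 259 and 35.0 CPM in HI and 105 and 9.34 CPM in naive neutrophils, which overlap. Of 5 members tested in mature neutrophils 0 passed with edgeR, beside 0.567% of 3528 genes called either way. The unadjusted edgeR p was under 0.05 for 4 of the 5, beside 655 of all 3528 genes.

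The Ccl4 UMIs of a library were divided among classes in different shares. Microglia held 62.4% and 21.0% of Ccl4 UMIs in HI and 81.1% and 63.3% in naive libraries. Classical monocytes held 18.0% and 25.7% in HI and 1.01% and 13.9% in naive libraries, and mature neutrophils held 14.8% and 22.0% in HI and 0.706% and 0% in naive libraries. For monocytes and neutrophils both HI libraries lay above both naive ones, and for microglia both lay below. These shares combine cell numbers and RNA per cell, and they carry no test.

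Ccl5, a chemokine of activated T and NK cells, was held by the T cell class, which also carried NK genes. The class had 218 and 1689 CPM in HI 1 and HI 2, against 1339 and 1917 CPM in naive 1 and naive 2, and the groups overlap (log2 change −0.73, edgeR adjusted p = 0.808, beside 0% of 4554 genes called). A Ccl5 UMI was found in 7.69% and 21.6% of the cells of this class in HI and in 32.7% and 32.5% in naive libraries after thinning. With the marker gate T cells held only 1 and 1 Ccl5 UMIs in HI and 17 and 223 in naive libraries. Receptor sequencing split the class. Cells with an assembled T-cell receptor held 1 and 11 Ccl5 UMIs in HI and 8 and 104 in naive libraries, while cells of the class without one held 56 and 510 in HI and 611 and 647 in naive libraries. Those cells without one numbered 2 and 12 in HI and 18 and 21 in naive libraries, and a Ccl5 UMI was found before thinning in 100% and 83.3% of them in HI and in 88.9% and 71.4% in naive libraries. The 9 NK markers summed to 341 and 2292 CPM in HI and 2804 and 2397 CPM in naive T cells, with Klre1, Eomes and Klra8 at 0 in HI 1. The part of their number in the Ccl5 level was not tested.

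Ccl5 in gamma-delta T cells had 3 and 295 UMIs in HI and 25 and 59 in naive libraries (log2 change 2.29, edgeR adjusted p = 0.495, not called, beside 0.459% of 6759 genes). That change was −0.29 without the highest cell of each library. Conventional dendritic cells had 10 and 0 Ccl5 UMIs in HI and 113 and 89 in naive libraries, 13.9 and 0 CPM against 95.4 and 89.2 CPM (log2 change −3.84, edgeR unadjusted p = 0.000308, adjusted p = 0.869). No gene of that class passed the adjustment, 0% of 7211, so the difference was not called although the libraries did not overlap.

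Ccl6 and Ccl9, a pair found in rodents that acts on Ccr1, were the broadest members. Ccl6 was found after thinning in 96.0% and 94.1% of HI and 96.5% and 95.9% of naive non-classical monocytes, the cells that patrol the vessel wall. Its levels there were 1899 and 1634 CPM in HI and 1748 and 1578 CPM in naive libraries, which overlap. In the order of mean levels, mature neutrophils (1928 CPM, range 551 to 3819), non-classical monocytes (1715, 1578 to 1899) and classical monocytes (1318, 1075 to 1653) overlapped. Dendritic cells (815, 697 to 935) and microglia (524, 388 to 646) lay below both monocyte classes without overlap, although both overlapped the neutrophils, and BAM had 210 CPM (167 to 252). Neutrophils had 1039 and 551 CPM of Ccl6 in HI and 2304 and 3819 CPM in naive libraries (log2 change −1.39, edgeR adjusted p = 0.155), values that do not overlap and did not pass, while the change passed with the marker gate (−1.79, 0.0253). The 11 BAM markers in Mature neutrophils summed to 531 and 53.9 CPM in HI and 5042 and 1555 CPM in naive libraries, with Cd209f at 0 in both HI libraries and 1 of 10 tested markers lower. Their part in the neutrophil values was not tested.

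Ccl9 was called higher in HI BAM. It had 241 and 185 CPM in HI 1 and HI 2, against 153 and 136 CPM in naive 1 and naive 2, or 213 ± 39.0 CPM in HI and 145 ± 12.1 CPM in naive BAM (SD, n = 2 each), which on the log2 scale is a change of 0.57 (SE 0.11, edgeR adjusted p = 0.0431). It was found in 36.4% and 31.5% of HI BAM and 25.1% and 23.5% of naive BAM after thinning, and both HI libraries lay above both naive ones. The call was lost without naive 1 (edgeR adjusted p = 0.0795) and without naive 2 (0.207). Ccl6 in BAM had 252 and 207 CPM in HI and 215 and 167 CPM in naive libraries, which overlap (log2 change 0.27, edgeR adjusted p = 0.265). Basophils and mast cells, 0 and 7 cells in HI and 16 and 19 in naive libraries, all had a Ccl9 UMI, at 3252 CPM in HI 2 and 3207 and 2912 CPM in naive 1 and naive 2. The same cells had 5839 CPM of Ccl6 in HI 2 and 4329 and 7017 CPM in naive libraries, and 1556 CPM of Ccl3 in HI 2 and 809 and 635 CPM in naive libraries. With no such cell in HI 1 they were not tested.

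Ccl24, a ligand of the eosinophil receptor Ccr3, was the chemokine of most BAM. It was found after thinning in 65.8% and 57.6% of HI BAM and 69.9% and 65.1% of naive BAM, and without thinning in 81.8% to 90.5%. BAM had 654 and 446 CPM in HI and 674 and 584 CPM in naive libraries, which overlap (log2 change −0.19, edgeR adjusted p = 0.540). No other class came near BAM apart from unnamed clusters 2 and 19, which carry BAM markers. Microglia had 24.5 CPM (20.1 to 27.8) and B cells 2.25 CPM. In 7 of 14 BAM clusters both HI libraries lay below both naive ones, and in 0 above, a count that was not made over all genes. Classical monocytes of naive 1 had 289 CPM against 12.5 CPM in naive 2 and 36.9 and 31.9 CPM in HI, so that 1 library set the naive mean.

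**Figure D4:**
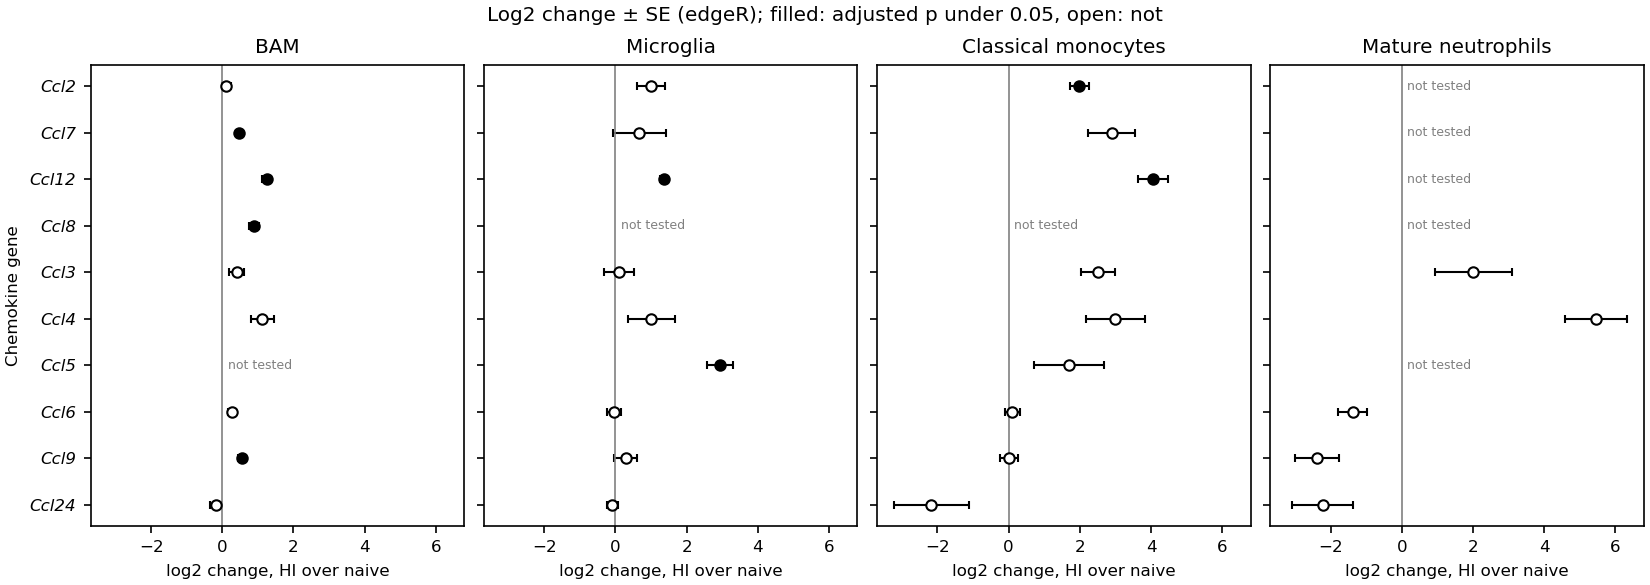
Log2 change of HI over naive ± SE from edgeR for each gene in 4 classes, filled where the adjusted p was under 0.05. Ccl12 is filled in BAM, microglia and classical monocytes, and Ccl4 in neutrophils has the widest change, 5.45, but is open.

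BAM formed 14 clusters, and the members differed in how their RNA was divided among them. Ccl12 was highest in cluster 8, with 1045 and 1835 CPM in HI and 1089 and 1615 CPM in naive libraries. Ccl2 and Ccl7 were highest in cluster 22, which leads with the early response genes Egr2 and Egr1. Ccl7 there had 807 and 1365 CPM in HI and 520 and 1264 CPM in naive libraries, and Ccl2 had 1168 and 1540 CPM in HI and 1013 and 1627 CPM in naive libraries. Ccl8 was highest in cluster 12, with 179 and 223 CPM in HI and 609 and 613 CPM in naive libraries, the reverse of its change in BAM as a whole. The naive values rest on 40 and 47 cells. In naive 2 a single BAM held 169 of 758 Ccl8 UMIs, where cluster 12 held 53.3% of them and no other cluster more than 16.6%. Ccl9 was highest in cluster 9, which leads with Timd4 and Wfdc17, at 620 and 748 CPM in HI and 712 and 694 CPM in naive libraries. In these leading clusters HI and naive overlapped for Ccl12, Ccl7, Ccl2 and Ccl9.

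Cluster sizes differed as well. Cluster 8 made up 16.4% and 8.74% of BAM in HI 1 and HI 2, against 0.921% and 0.944% in naive 1 and naive 2. Cluster 10 made up 8.90% and 6.81% in HI and 2.10% and 1.52% in naive libraries, and cluster 12 made up 5.96% and 7.63% in HI and 1.47% and 1.34% in naive libraries. In cluster 8 lay 48.8% and 33.0% of the Ccl12 UMIs of HI BAM and 4.47% and 6.34% of those of naive BAM. The share of each of these 3 clusters was more than 2 times as high in each HI library as in each naive one, and BAM were compared again without them, an alternative chosen after seeing the data. The log2 change of Ccl12 was then 0.77 (edgeR adjusted p = 0.0860) and that of Ccl7 was 0.11 (0.633), so neither passed. Ccl8 (1.28, edgeR adjusted p = 0.00796) and Ccl9 (0.49, 0.0392) passed.

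The order of the libraries was also counted within clusters. Both HI libraries lay above both naive ones in 11 of 14 BAM clusters for Ccl9, 10 for Ccl6, 7 for Ccl12, 6 for Ccl4, 5 for Ccl3, 4 for Ccl8, 3 for Ccl7, 1 for Ccl2 and 0 for Ccl24. Both lay below in 7 clusters for Ccl24, 4 for Ccl2, 3 for Ccl7, 1 each for Ccl3 and Ccl8 and 0 for Ccl9, Ccl6, Ccl12 and Ccl4. The same count was not made over all genes, so these counts cannot be set against what any gene would give. Clusters share the same libraries and are not separate repeats. Some are small, with 58 naive cells in cluster 8 and 10 HI and 3 naive Ccl4 UMIs in cluster 15. The median ratio of HI to naive over clusters was 1.65 for Ccl9, 1.495 for Ccl12 and 0.950 for Ccl7. In cluster 3, macrophages that lead with the interferon targets Ifit3, Rsad2 and Isg15, Ccl8 had 65.4 and 55.9 CPM in HI and 22.8 and 20.9 CPM in naive libraries. Ccl12 in that cluster had 510 and 1101 CPM in HI and 458 and 339 CPM in naive libraries, and both genes there were higher in both HI libraries.

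**Figure D5:**
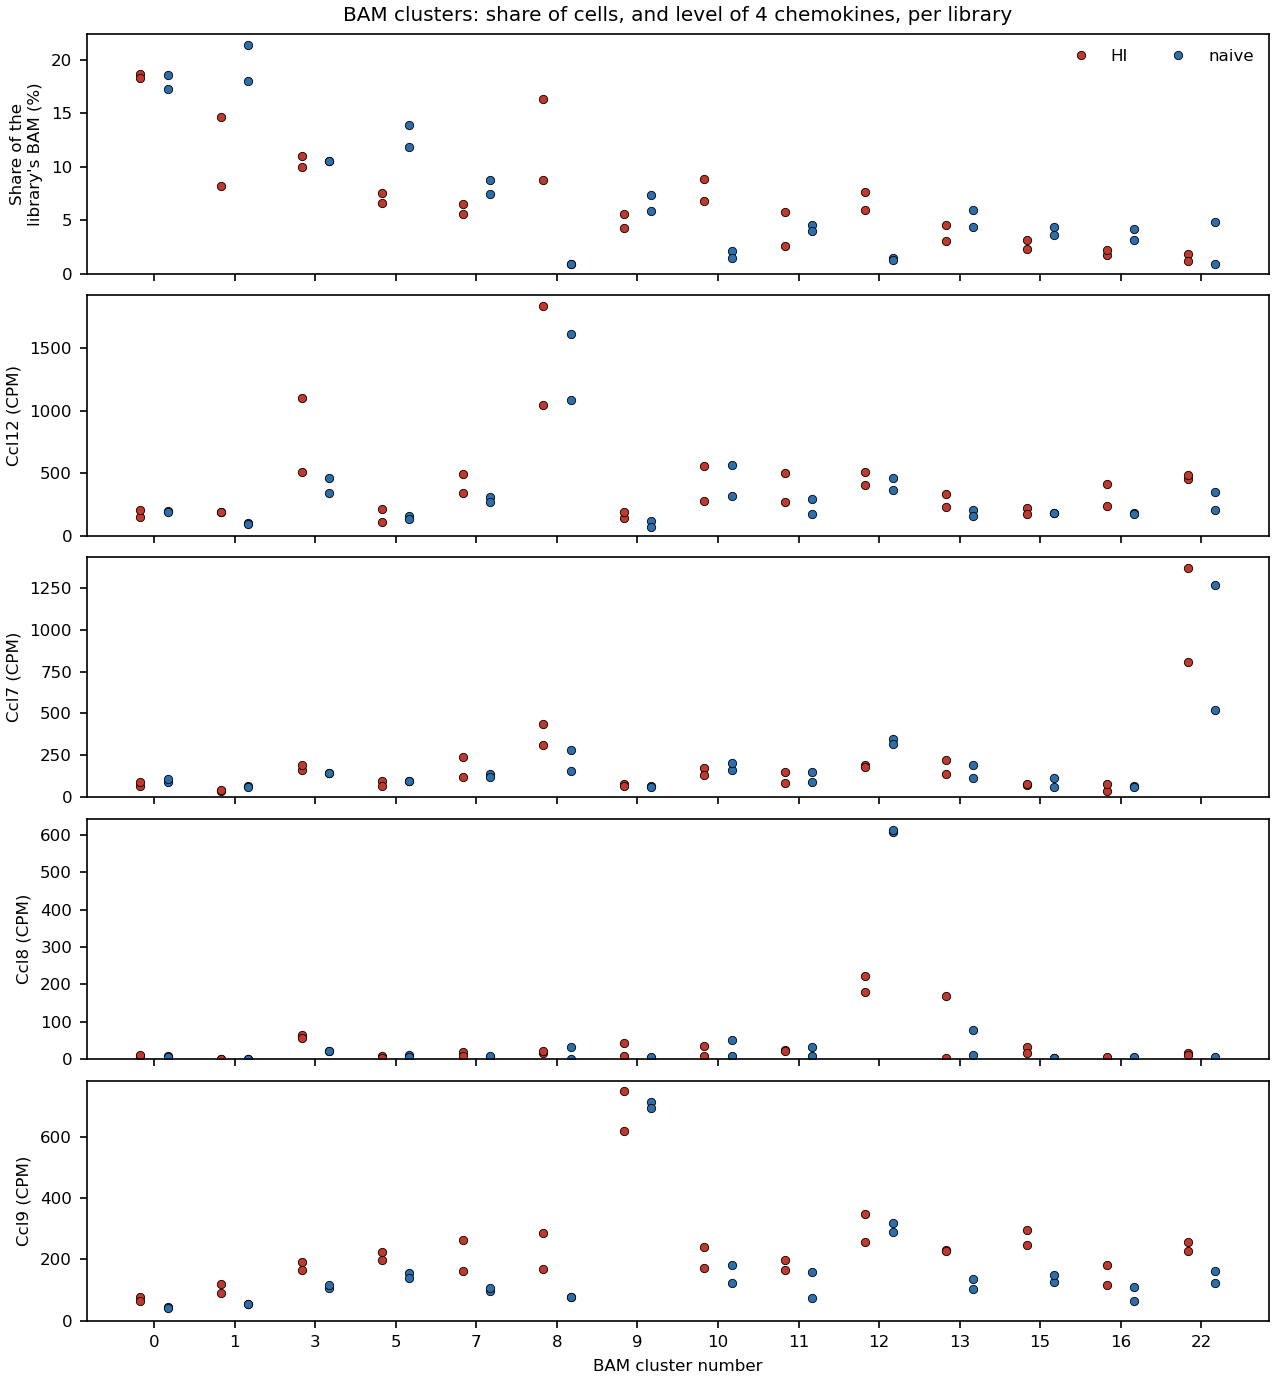
Share of BAM (top, %) and level (CPM) of Ccl12, Ccl7, Ccl8 and Ccl9 in the 14 BAM clusters, 1 point per library, HI left of naive. Cluster 8 was 16.4% and 8.74% of HI BAM and 0.921% and 0.944% of naive BAM and has the highest Ccl12. Ccl8 in cluster 12 is 179 and 223 CPM in HI and 609 and 613 CPM in naive libraries, the latter from 40 and 47 cells.

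Single BAM differed in how many chemokines they held. After thinning the median cell had a UMI of 2 of the 10 genes in every library, and 8.97% and 10.6% of HI BAM and 9.91% and 12.4% of naive BAM had none. Cells with 5 or more made up 5.43% and 4.67% of BAM in HI and 3.35% and 2.06% in naive libraries. Ccl12 was concentrated, with 73.4% and 72.0% of its UMIs in the 10% of BAM that held most in HI and 66.7% and 68.3% in naive libraries. Ccl24 was more even, at 43.2% and 42.4% in HI and 36.6% and 39.7% in naive libraries. The cells that held most were chosen for each gene and library by that gene's own counts.

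Some pairs of chemokines shared BAM more than others did. Of cells with Ccl2, 37.2% and 41.6% in HI and 40.2% and 34.4% in naive libraries also had Ccl7. Of cells without Ccl2, 16.2% and 16.0% in HI and 15.0% and 15.5% in naive libraries had it, a median ratio of 2.45 over the 4 libraries. The ratio was 2.16 for Ccl9 in cells with and without Ccl6 and 2.08 for Ccl7 in cells with and without Ccl12. It was 8.77 for Ccl4 in cells with and without Ccl3, which rests on 3 to 12 cells with both a library and on genes whose models overlap. For Ccl24 in cells with and without Ccl12 it was 0.957. All cells of a pair share their library, and no test was made.

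The effect of HI was compared between classes in a fit with a term per library. Against classical monocytes, BAM had a smaller change of Ccl12 (difference in log2 change −2.81, SE 0.33, edgeR adjusted p = 0.000472), Ccl2 (−1.85, 0.00587) and Ccl7 (−2.43, 0.0316), 3 of 10 members tested beside 0.789% of 12418 genes. All of these fits took clustered cells, and none was run with the marker gate. In gated classical monocytes Ccl12 had 13 and 1 UMIs in HI and 1 and 3 in naive libraries, and Ccl7 had 0 and 2 against 1 and 1. Both overlapped, while Ccl2 did not, at 262 and 210 CPM in HI and 50.9 and 129 CPM in naive libraries. Against mature neutrophils 3 of 9 members differed, beside 1.41% of 12175 genes. Ccl4 had a difference of −4.72 (edgeR adjusted p = 1.87e-11) and Ccl3 of −1.69 (0.0435), with the larger change in neutrophils. The difference for Ccl9 was 2.74 (edgeR adjusted p = 0.00188), with 9.37 and 5.39 CPM in HI and 92.1 and 32.7 CPM in naive neutrophils. With the marker gate Ccl9 in neutrophils was at 4 and 2 UMIs in HI and 1 and 0 in naive libraries, or 4.59 and 2.61 CPM against 6.26 and 0 CPM, which overlap. The BAM markers in the clustered neutrophils, given above, were likewise lower in HI, and their part was not tested. Against non-classical monocytes 2 of 10 differed, beside 2.43% of 12380 genes, and these were Ccl9 (0.98, edgeR adjusted p = 2.20e-08) and Ccl4 (2.02, 0.000414). With the marker gate Ccl4 in non-classical monocytes had 58.2 and 20.1 CPM in HI and 19.7 and 21.1 CPM in naive libraries, which overlap. Against microglia 0 of 10 differed with edgeR, beside 0.456% of 12711 genes. The unadjusted edgeR p was under 0.05 for 3 of the 10, beside 1453 of all 12711 genes. Because edgeR shares information on spread between genes, very small p-values here do not measure the spread of the gene itself. Every neutrophil difference lost its call when a naive library was left out.

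In the sum of all kept cells, which mixes level and cell makeup, Ccl12 had 351 and 444 CPM in HI and 174 and 157 CPM in naive libraries (log2 change 1.31, SE 0.13, edgeR adjusted p = 0.0392). It was the only member of 10 called, beside 0.381% of 14705 genes called higher, and it did not pass without naive 1 (edgeR adjusted p = 0.212) or without naive 2 (0.169). In such a sum, more cells of a type and more RNA per cell cannot be told apart. Ccl8 had 22.4 and 30.4 CPM in HI and 13.7 and 13.5 CPM in naive libraries (log2 change 1.00, edgeR adjusted p = 0.0791). Ccl7 had 122 and 125 CPM in HI and 93.2 and 81.5 CPM in naive libraries (0.54, 0.0682). Neither passed, although their groups did not overlap.

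Receptors of these ligands were called in 1 class. In non-classical monocytes Ccr1 and Ccr2 rose and Ccrl2, a binding protein that does not signal, fell, beside 1.46% of 8407 genes called higher and 1.72% called lower. Ccr1 had 40.3 and 79.2 CPM in HI and 9.06 and 6.69 CPM in naive cells (log2 change 3.02, edgeR adjusted p = 4.96e-07). Ccr2 had 235 and 207 CPM in HI and 88.9 and 64.9 CPM in naive cells (1.501, 1.16e-07). Ccrl2 had 11.6 and 17.8 CPM in HI and 28.3 and 40.1 CPM in naive cells (−1.19, 0.00587). Markers moved in the Non-classical monocytes too: of 8 markers of classical monocytes 4 rose and 1 fell, with sums of 5449 and 6410 CPM in HI and 5612 and 5810 CPM in naive cells, and of their own 8 markers 4 fell. Of 7 BAM markers tested, from a list of 11, 3 rose, with sums of 346 and 166 CPM in HI and 114 and 78.3 CPM in naive cells, and none was at 0 in every library. Of 5 mature neutrophil markers tested, from a list of 8, 2 rose, with sums of 639 and 1930.4 CPM in HI and 260 and 661 CPM in naive cells. BAM had 403 and 399 CPM of Ccr1 in HI and 457 and 406 CPM in naive libraries, and mature neutrophils had 751 and 562 CPM in HI and 559 and 439 CPM in naive libraries. Ccr2 is itself 1 of the 8 classical monocyte markers. The part of these in the receptor changes was not tested. No receptor of the 6 tested in BAM, 3 in microglia, 4 in classical monocytes or 2 in neutrophils was called with edgeR. Of the ligands themselves, 0 of 4 members tested in non-classical monocytes passed with edgeR. The unadjusted edgeR p was under 0.05 for 1, Ccl9, beside 1124 of all 8407 genes. Ccl9 had 107 and 76.4 CPM in HI and 112 and 117 CPM in naive cells (log2 change −0.40, edgeR adjusted p = 0.149).

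Of 26 regulators of chemokine transcription and mRNA decay, Socs3, a feedback inhibitor of cytokine receptors that signal through Stat3, rose in 4 classes. In BAM it had 10.7 and 16.0 CPM in HI and 1.90 and 1.62 CPM in naive cells (log2 change 2.95, edgeR adjusted p = 0.00385). In classical monocytes it had 409 and 307 CPM in HI and 16.4 and 16.3 CPM in naive cells (4.44, 0.000581), in microglia 42.2 and 70.7 CPM in HI and 12.1 and 10.5 CPM in naive cells (2.30, 0.02), and in non-classical monocytes 167 and 231 CPM in HI and 125 and 130 CPM in naive cells (0.64, 0.00403). In BAM 1 of 26 rose and 2 fell, the mRNA stabiliser Elavl1 (−0.41, edgeR adjusted p = 0.0332) and the glucocorticoid receptor Nr3c1 (−0.29, 0.0465). Zfp36, which destabilises chemokine mRNA, rose in classical monocytes (1.22, edgeR adjusted p = 0.0185), and the AP-1 subunit Fos fell in microglia (−1.82, 0.00521). In non-classical monocytes 2 of 26 rose, Socs3 and Stat3 (0.41), and 2 fell, among them the NF-kB subunit Rel (−0.58). All genes called higher and lower were 2.34% and 1.45% in BAM, 1.46% and 1.72% in non-classical monocytes and 0.0820% and 0.0365% in microglia, and 0.678% were called higher in classical monocytes. Of 11 other CC chemokines at most 4 passed the filter in any class, and 0 were called with edgeR.

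Over the 36 sums of 9 classes and 4 libraries, the gene most like each member among 5825 was found by Pearson correlation of log2(CPM + 1), as a description. Ccl2 and Ccl7 were most like each other (r = 0.82), as were Ccl3 and Ccl4 (0.88), and Ccl7 was next most like Ccl12 (0.82). Ccl24 was most like Fcna (0.95), Ccl6 like Il13ra1 (0.96), Ccl9 like Cd302 (0.93), Ccl12 like C1qa (0.85), Ccl5 like Klrk1 (0.83) and Ccl8 like Eps15 (0.85). Sums of 1 library share cells' handling and depth, and classes dominate these values.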

How the data were processed

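Meningeal cells of 4 pools were profiled by 10x 5' gene expression, with 4 T-cell and 4 B-cell receptor libraries. The deposited matrices hold UMI counts per gene and cell, which the authors made with Cell Ranger 2.2.0 and used with Seurat 3.027 on mm10 (GRCm38), per the submitters' processing notes. Filters applied before deposit are not given in the sources used here. Totals per library were 51986763 to 68543046 UMIs.

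From these counts, barcodes were kept from 200 detected genes upward and up to 10% of UMIs from mitochondrial genes, and 142 to 329 cells per library with the highest doublet scores were removed by rank (scanpy 1.11.5), since the automatic cut called almost none. Cells were clustered by the Leiden method without genes named Ccl, Cxcl, Ccr or Cxcr, and named from marker lists. The scoring rules for names were chosen after seeing the data. UMIs were summed per class and library where every library had 20 or more cells of the class, and tested with edgeR 4.0.16 (quasi-likelihood test, TMM scaling, low counts filtered, Benjamini-Hochberg adjustment over all genes of a class, threshold 0.05). Differences between classes were tested in a joint fit. In counts simulated for BAM, 88.6% of genes changed by 1 on the log2 scale and 99.1% of those changed by 2 were recovered, and for mature neutrophils 9.18% and 68.3%. Shares of cells used 3000 UMIs drawn per cell, and intervals and floors cover counting error only.

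All 10 members were named in every class, with the 3 genes most like each (of which the text gives the first, and others where they are members) and any gene of the 3 lists past 0.05, up to 8 per list and class; results of some listed genes are not reported here. Members and lists were chosen with earlier results of these data known. Alternatives were DESeq2 1.42.0, RLE scaling, no filter, a replicate block, no doublet removal, a marker gate, a stricter cell filter, each library left out, and 2 added after seeing the data. Library numbers were not established as pairs, and libraries were not tied to runs. Promoter windows are from RefSeq (GRCm38.p6).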

Additional observations from a re-analysis of the deposited data

Results flagged for a closer look

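The effect of HI differed between BAM and another class in a test of the difference itself for 8 combinations of gene and class. Each value is the log2 change in BAM minus that in the other class, with edgeR's adjusted p over all genes of the fit. All took clustered cells, and none was fitted with the marker gate. Under that gate Ccl12 and Ccl7 in classical monocytes overlapped between groups. So did Ccl4 in non-classical monocytes, with 58.2 and 20.1 CPM in HI and 19.7 and 21.1 CPM in naive libraries.

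Against classical monocytes the differences were −2.81 for Ccl12 (SE 0.33, edgeR adjusted p = 0.000472), −1.85 for Ccl2 (SE 0.29, 0.00587) and −2.43 for Ccl7 (SE 0.49, 0.0316). Ccl7 did not pass without HI 2 (−1.89, edgeR adjusted p = 0.0532), where a single cell held 64 of its 73 UMIs in that class.

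Against mature neutrophils they were −4.72 for Ccl4 (SE 0.61, edgeR adjusted p = 1.87e-11), −1.69 for Ccl3 (SE 0.49, 0.0435) and 2.74 for Ccl9 (SE 0.62, 0.00188). Ccl4 did not pass without naive 1 (edgeR adjusted p = 0.0561) or naive 2 (0.687), and Ccl9 did not pass without any one library (0.0754 to 0.708). Ccl3 passed among these only without HI 2 (−3.05, edgeR adjusted p = 0.000390), and its sign turned without HI 1 (0.14). Neutrophils had 25 and 44 cells in the naive libraries.

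Against non-classical monocytes they were 0.98 for Ccl9 (SE 0.15, edgeR adjusted p = 2.20e-08), which passed in each alternative run, and 2.02 for Ccl4 (SE 0.44, 0.000414), which did not pass without naive 2 (1.81, 0.0600).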

How the results depend on the processing

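Of 9 calls of members in the classes and all cells, RLE scaling kept 9, DESeq2 and no doublet removal 8 each, the marker gate 5, and leaving out naive 1 or naive 2 4 each. The marker gate was not run on the sum of all cells, so the call there is missing from its count without having been tested. Replicate numbers were not established as pairs (correlation of same-numbered deviations −0.0884 to 0.311 over classes). The replicate block kept 8 of the 9. Calls of members numbered 22 with the block, 38 without a filter, 25 without HI 1 and 32 without HI 2, where the lone HI library is assumed to vary like the naive ones. Genes called with the block, against the main count, were 1606 against 484 in BAM, 472 against 13 in microglia, 232 against 50 in classical monocytes, 401 against 20 in neutrophils, 544 against 268 in non-classical monocytes, 119 against 31 in gamma-delta T cells, 69 against 0 in dendritic cells, 1 against 0 in T cells, 0 against 2 in B cells and 162 against 75 in all cells. The block turned Ccl3 in microglia (−0.058).

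With DESeq2 the counts were 744 (all cells), 8 (B cells), 100 (neutrophils), 77 (microglia), 85 (non-classical monocytes) and 1 (T cells). Without a filter they were 257 (all cells), 126 (B cells), 1848 (BAM), 453 (classical monocytes), 88 (dendritic cells), 205 (gamma-delta T cells), 351 (neutrophils), 712 (microglia), 106 (T cells), and 326 and 478 for the differences from classical monocytes (98) and microglia (58). Without doublet removal they were 0 (B cells), 138 (neutrophils), 53 (microglia) and 1 (T cells). The marker gate gave 5 (B cells), 11 (classical monocytes), 70 (neutrophils), 20 (microglia) and 170 (non-classical monocytes), and no value for dendritic, gamma-delta T and T cells, with too few cells. Less the highest cells, microglia had 6.

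Leaving out 1 library gave 2 to 265 genes in all cells, 36 to 82 in B cells, 83 to 1479 in BAM, 43 to 119 in classical monocytes, 1 to 36 in dendritic cells, 2 to 215 in gamma-delta T cells, 92 to 422 in neutrophils, 4 to 1016 in microglia, 89 to 296 in non-classical monocytes and 2 to 176 in T cells. For differences it gave 185 to 270 (classical monocytes), 0 to 127 (neutrophils, main 172), 14 to 703 (microglia) and 124 to 245 (non-classical monocytes, main 301).

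Signs turned, with log2 changes, for Ccl2 in BAM without the enlarged clusters (−0.22), with the marker gate for Ccl6 (−0.028) and Ccl9 (−0.11) in classical monocytes, Ccl24 (0.61) and Ccl3 (−0.0046) in microglia and Ccl4 in non-classical monocytes (0.74), less the highest cells for Ccl9 in classical monocytes (−0.059) and Ccl5 in gamma-delta T cells (−0.29), and without doublet removal for Ccl6 in microglia (0.034). Leaving out 1 library in turn gave ranges that cross 0. In all cells they were −0.383 to 0.057 (Ccl24), −0.399 to 0.829 (Ccl3) and −2.42 to 0.163 (Ccl5), and in BAM −0.086 to 0.346 (Ccl2) and −0.463 to 0.045 (Ccl24). In classical monocytes they were −3.06 to 1.46 (Ccl24), −0.524 to 4.31 (Ccl5), −0.242 to 0.388 (Ccl6) and −0.260 to 0.392 (Ccl9). In microglia they were −0.336 to 0.128 (Ccl24), −0.939 to 0.706 (Ccl3), −0.987 to 1.81 (Ccl4), −0.463 to 0.270 (Ccl6), −1.83 to 1.54 (Ccl7) and −0.526 to 0.803 (Ccl9). In non-classical monocytes they were −0.499 to 0.300 (Ccl3) and −0.045 to 0.146 (Ccl6). They were −0.794 to 1.62 for Ccl24 in dendritic cells, −3.003 to 3.21 and −2.85 to 0.088 for Ccl5 in gamma-delta T and T cells, and −3.62 to 0.136 for Ccl3 in BAM minus neutrophils. The cause was not tested for any of these.

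The HI minus naive share of BAM with a UMI, in percentage points, was −4.68 for Ccl2 without thinning (main −1.42), 0.917 for Ccl4 (0.435; 0.102 with at least 2 UMIs), −0.0660 for Ccl5 (0.00939), −0.354 for Ccl7 (0.741), 2.94 for Ccl8 (1.35; 0.745 with at least 2) and 13.7 for Ccl9 (9.62; 5.02 with at least 2). Ccl5 in HI BAM averaged 0.452 CPM with the marker gate against 0.242. Counts under about 10 UMIs a class and library limit Ccl5, Ccl7 and Ccl8 outside their main sources.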
